A study of Mus musculus with 26 samples.

Results

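The genes described here are 10 genes of the cellular response to low oxygen: Slc2a1, Vegfa, Bnip3, Adm, Egln3, Egln1, Ndrg1, Pfkfb3, Ankrd37 and Hif1a. They are 10 of the 18193 genes that the platform annotation names with 1 symbol per probe set. Each was read from its brightest such probe set, by the highest mean of log2(value + 16) over 26 Affymetrix arrays. RNA came from pancreatic islets of wild-type male mice of the strain labelled C57/Bl6J or C57BL6. Islets of old mice (56 weeks) were cultured for 2 days at 3, 5.5 or 11 mM glucose or used fresh. Islets of young mice (5 weeks) were cultured for 2 days at 3, 5.5, 11 or 16 mM or used fresh. A time course followed young islets from a night at 3 mM glucose (0 h) to 1 h and 4 h at 11 mM, with no group left at 3 mM for those hours. Per the labels' protocols islets first recovered for 1 day at 11 mM glucose with serum, and the labels do not say whether mice were pooled. Young islets at 11 mM had 4 arrays and each of the other 11 groups had 2.

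Cells sense oxygen through prolyl hydroxylases, among them those encoded by Egln1 and Egln3, which mark the transcription factor subunit HIF-1α (Hif1a) for destruction while oxygen is present. When oxygen is short the subunit is stabilised, pairs with ARNT and raises genes of glucose uptake, glycolysis, vessel growth and mitochondrial turnover. Hif1a is controlled mainly at the protein level, so its mRNA need not follow the activity of the factor. Insulin-secreting beta cells respire at a high rate, and isolated islets lose their blood supply. Mouse beta cells take up glucose mainly through the transporter of Slc2a2, while Slc2a1 encodes a transporter of higher affinity found in most cells.

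HIF binds short elements whose core reads ACGTG or GCGTG. Promoter windows of 300 bases, 250 before and 50 after a transcript's start, were available from RefSeq (GRCm38.p6) for 9 of the 10 genes, in 11 windows. At least 1 of these cores, searched on both strands, lay in 10 of the 11 windows and in 14380 of all 32851 windows of that length (43.8%). The windows of Slc2a1, Adm and Ankrd37 are printed because these genes had the largest log2 changes at 16 against 3 mM glucose in young islets, Slc2a1 and Adm downward and Ankrd37 upward. They are written 5′ to 3′ on the gene's strand, and capitals mark every match, with CACGT and CACGC as the same cores on the other strand.
Slc2a1 (chr4:119108495-119108794, plus strand): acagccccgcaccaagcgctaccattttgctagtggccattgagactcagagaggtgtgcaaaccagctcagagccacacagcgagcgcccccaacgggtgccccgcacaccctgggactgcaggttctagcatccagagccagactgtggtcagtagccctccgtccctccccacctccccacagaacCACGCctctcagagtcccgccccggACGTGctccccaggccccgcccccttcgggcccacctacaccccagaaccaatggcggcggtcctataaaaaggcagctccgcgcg
Adm (chr7:110627407-110627706, plus strand): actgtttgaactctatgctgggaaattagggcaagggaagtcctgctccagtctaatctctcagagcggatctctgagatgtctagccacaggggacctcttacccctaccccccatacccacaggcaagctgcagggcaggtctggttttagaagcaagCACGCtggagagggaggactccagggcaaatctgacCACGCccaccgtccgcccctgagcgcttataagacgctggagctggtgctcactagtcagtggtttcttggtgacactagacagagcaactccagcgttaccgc
Ankrd37 (chr8:45999801-46000100, minus strand): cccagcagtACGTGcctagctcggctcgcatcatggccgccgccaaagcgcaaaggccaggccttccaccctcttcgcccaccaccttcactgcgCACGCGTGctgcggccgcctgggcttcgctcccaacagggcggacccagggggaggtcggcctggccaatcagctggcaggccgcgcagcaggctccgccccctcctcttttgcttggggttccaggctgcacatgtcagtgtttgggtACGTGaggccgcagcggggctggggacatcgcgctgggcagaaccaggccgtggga
Slc2a1 had 1 ACGTG and 1 GCGTG, Adm had 2 GCGTG and no ACGTG, and Ankrd37 had 2 of each, of which the 2 GCGTG, on opposite strands, overlap. The window at the outer of 2 Vegfa starts was the 1 without a match. A match describes these letters and does not show binding.

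The Gapdh controls separated the arrays into 2 sets, for which there is no label. Signal at the 5′ end of Gapdh, divided by signal at its 3′ end, was 1.03 to 1.48 on 12 arrays, called set A, and 0.100 to 0.277 on the 14 of set B. Every old array, both fresh young arrays and the young 11 mM replicates numbered 3 and 4 were in set A, and all remaining young arrays were in set B. Within the young 11 mM group Egln1 read 380 and 410 in set A and 715 and 574 in set B, and Vegfa read 1042 and 989 in set A and 1449 and 1385 in set B. The set was therefore a term of the model, every comparison below rests on arrays of 1 set (the differences between ages in response, on 1 set for each age or for both), and signals of different sets are not compared. The islet genes Ins2 (2230 to 5224) and Slc2a2 (695 to 8942) were above the array median on all 26 arrays.

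Of the 10 genes, 8 were above the array median, 28 to 42, on 19 to 26 arrays. Adm was above it on 6 arrays, namely both arrays at 3 mM of each age and replicate 2 at 0 h and at 1 h, so it passed the filter on dim probe sets only through groups at low glucose and the 1 h group. A gene that enters this way had to differ, so its calls are given as values only. Egln3, whose product is an oxygen-sensing hydroxylase itself induced in hypoxia in many cells, was above the median on 1 array. It lay at 7 to 31 on all arrays and was not tested. The 9 genes tested gave 180 tests in 20 comparisons, of which 16 passed at an adjusted p under 0.05 (limma, Benjamini-Hochberg over 12542 genes), 8 upward and 8 downward. Among these 16, Adm gave 1 upward and 2 downward, which are values only.

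**Figure D1:**
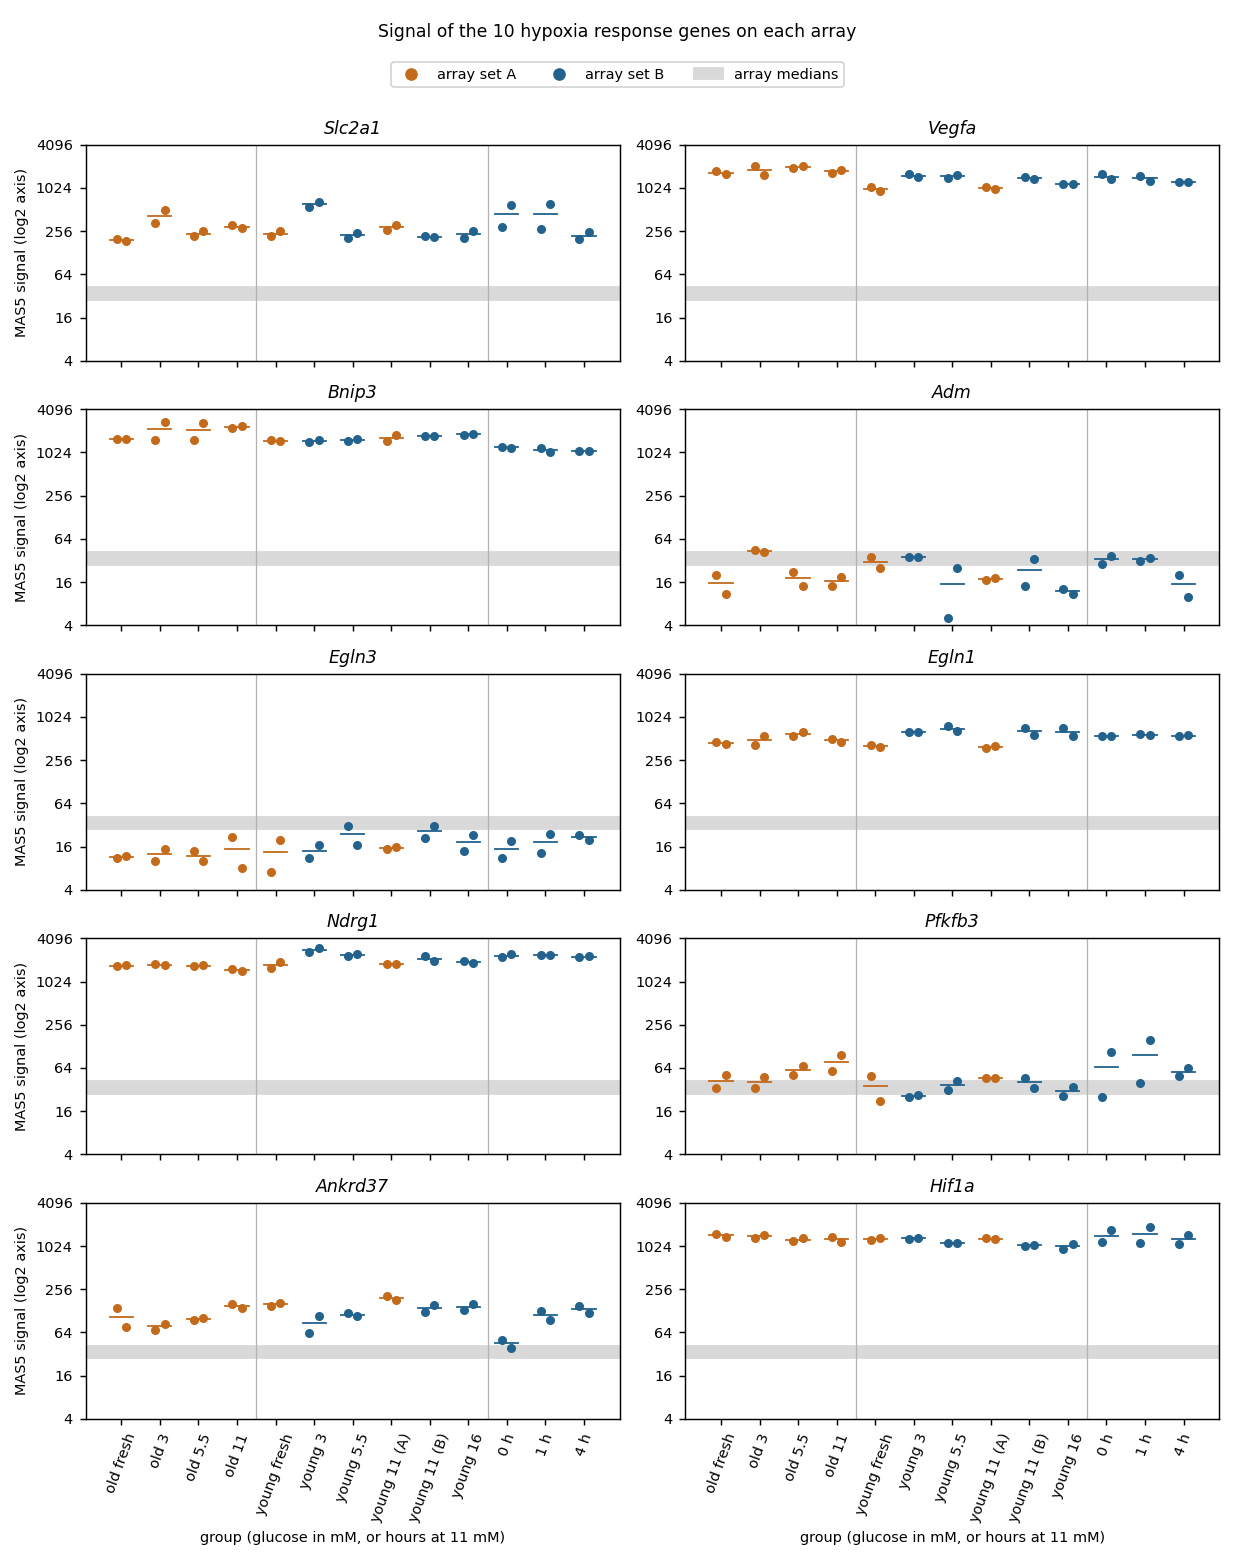
MAS5 signal (log2 axis) of each gene on each of the 26 arrays, by group, with array sets A and B in colour, a bar at each group mean and a grey band at the range of array medians, 28 to 42. Slc2a1 stands high at 3 mM and in replicate 2 at 0 h and 1 h, Ankrd37 is lowest at 0 h, and Egln3 and most Adm values lie at or under the band.

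Slc2a1 and Ankrd37, both known targets of HIF, went opposite ways with glucose in young islets. Slc2a1 was 2.58-fold lower at 5.5 mM than at 3 mM and stayed at that level up to 16 mM, while Ankrd37, an ankyrin-repeat protein gene, was 1.56-fold higher at 11 mM than at 3 mM. Slc2a1 read 554 and 657 at 3 mM, 207 and 243 at 5.5 mM, 221 and 209 at 11 mM (set B) and 208 and 254 at 16 mM. Both arrays at 3 mM lay above every array at the higher concentrations, and the 3 higher concentrations overlapped. The log2 change against 3 mM was -1.37 at 5.5 mM (SE 0.28, adjusted p = 0.00746), -1.42 at 11 mM (SE 0.28, adjusted p = 0.000948) and -1.33 at 16 mM (SE 0.28, adjusted p = 0.00137), with limma and n = 2 arrays per group in the set. These 3 changes share the arrays at 3 mM. The other Slc2a1 probe sets gave -1.27 and -0.80 at 5.5 mM, -1.35 and -0.99 at 11 mM and -1.45 and -0.98 at 16 mM. The call at 5.5 mM was lost when replicate 2 at 3 mM was left out (-1.25, adjusted p = 0.0823) and when replicate 2 at 5.5 mM was (-1.47, adjusted p = 0.0539).

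Ankrd37 read 62 and 110 at 3 mM, 118 and 108 at 5.5 mM, 123 and 156 at 11 mM (set B) and 133 and 159 at 16 mM in young islets. The arrays at 11 and 16 mM lay above both at 3 mM, and those at 5.5 mM overlapped with 3 mM. It rose by 0.64 at 11 mM (SE 0.23, adjusted p = 0.0469, limma) and by 0.70 at 16 mM (SE 0.23, adjusted p = 0.0275), and at 5.5 mM was at 0.38 (SE 0.23, adjusted p = 0.393). The rise at 11 mM did not pass when any single array at 11 mM was left out (adjusted p = 0.054 to 0.282), nor without replicate 1 at 3 mM (0.295, adjusted p = 0.5). The rise at 16 mM was lost on leaving out replicate 1 at 3 mM (0.36, adjusted p = 0.379) or replicate 2 at 16 mM (0.59, adjusted p = 0.171).

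Ndrg1, a stress-responsive gene raised by hypoxia in many cell types, was lower at high glucose by a smaller amount. It read 2622 and 3001 at 3 mM, 2339 and 2463 at 5.5 mM, 2301 and 1973 at 11 mM (set B) and 1969 and 1839 at 16 mM. No array at a higher concentration reached those at 3 mM. Ndrg1 fell by 0.39 at 11 mM (SE 0.10, adjusted p = 0.00677, limma) and by 0.56 at 16 mM (SE 0.10, adjusted p = 0.000352), and at 5.5 mM was at -0.22 (SE 0.10, adjusted p = 0.215). The probe set used carries the suffix of those that may cross-hybridise, and the 4 other Ndrg1 probe sets gave -0.39 to -0.82 at 16 mM. Its call at 11 mM was lost on leaving out replicate 2 at 3 mM (-0.30, adjusted p = 0.0975) or replicate 2 at 11 mM (-0.28, adjusted p = 0.117).

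Vegfa, which encodes the main growth factor for vessels and is made by beta cells, was lower at 16 mM. It read 1588 and 1457 at 3 mM, 1420 and 1546 at 5.5 mM, 1449 and 1385 at 11 mM (set B) and 1161 and 1173 at 16 mM. Only the arrays at 16 mM lay clear of the rest. Vegfa fell by 0.38 at 16 against 3 mM (SE 0.12, adjusted p = 0.0227, limma), a call lost without replicate 1 at 3 mM (-0.32, adjusted p = 0.154) and without replicate 1 or 2 at 16 mM (adjusted p = 0.0789 and 0.0791). Against 11 mM it was at -0.28 (SE 0.12, adjusted p = 0.544).

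Adm, which encodes the vasodilator peptide adrenomedullin, read 36 and 36 at 3 mM, 5 and 25 at 5.5 mM, 14 and 33 at 11 mM (set B) and 13 and 11 at 16 mM. Its log2 value at 16 mM was -0.89 against 3 mM (SE 0.29, adjusted p = 0.0263, limma) and did not pass when any 1 of the 4 arrays was left out (adjusted p = 0.0668 to 0.118). Its probe set may cross-hybridise, as its name carries the suffix for such probe sets, and the other Adm probe set gave -0.33.

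The remaining genes did not pass in young islets at any of the 3 concentrations. Hif1a read 1297 and 1318 at 3 mM, 1140 and 1119 at 5.5 mM, 1025 and 1064 at 11 mM (set B) and 919 and 1110 at 16 mM, lower on every array than at 3 mM. Its log2 change was -0.21 at 5.5 mM, -0.32 at 11 mM and -0.37 at 16 mM (SE 0.19 each, adjusted p = 0.602, 0.228 and 0.155, limma). The Hif1a probe set next in brightness, above the array median on 26 arrays, gave -0.03, 0.24 and -0.10. A dimmer one, above it on 16 arrays, gave -0.59, -0.59 and -0.63, so the probe sets disagree. With the replicate numbers as a block, Hif1a passed at 11 mM (adjusted p = 0.0275) and at 16 mM (adjusted p = 0.012). Deviations of same-numbered arrays correlated at 0.17 for 3 with 11 mM and at 0.19 for 3 with 16 mM. That is within the 0.055 to 0.2 of old groups, not taken as paired, so the pairing is weak here. Bnip3, a mitophagy receptor gene, lay at 1451 to 1868 on these 8 arrays (0.30 at 16 mM, SE 0.21, adjusted p = 0.31). Egln1, the main oxygen-sensing hydroxylase, lay at 551 to 768 (-0.0029 at 16 mM, SE 0.14, adjusted p = 0.991), and its dimmer probe set gave -0.37 at 16 mM. Pfkfb3, whose product drives glycolysis through fructose 2,6-bisphosphate, lay at 25 to 47 (0.14 at 16 mM, SE 0.44, adjusted p = 0.85).

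In counts, 1 of the 9 genes passed at 5.5 against 3 mM in young islets, where 6.06% of all genes did. At 11 against 3 mM 3 of 9 passed (26.5% of all genes), and at 16 against 3 mM 5 of 9 passed (28.8% of all genes), Adm included. Without Adm, 4 of the other 8 genes passed there, and their median log2 change was -0.19, beside 0.01 for all genes tested. Between the higher concentrations none of the 9 passed in limma's test. At 11 against 5.5 mM 0 of 9 had an unadjusted p under 0.05 (3.25% of all genes passed), and at 16 against 11 mM 1 of 9 had (0.00797% of all genes passed, which is 1 gene). The log2 changes of the 9 genes lay between -0.17 and 0.39 at 11 against 5.5 mM and between -0.45 and 0.09 at 16 against 11 mM. In the same comparison of 16 with 3 mM, 9 of 13 islet endocrine marker genes rose, 1 of 12 endothelial markers fell and 1 of 9 acinar markers fell. The sum of 14 endothelial markers was 539 to 540 at 16 mM and 584 to 656 at 3 mM, and the defining marker Pecam1 read 2 to 3 at 16 mM and 3 at 3 mM. Their part in the changes of the hypoxia genes was not tested. In bulk RNA, fewer cells of a type and less RNA per cell cannot be told apart.

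**Figure D2:**
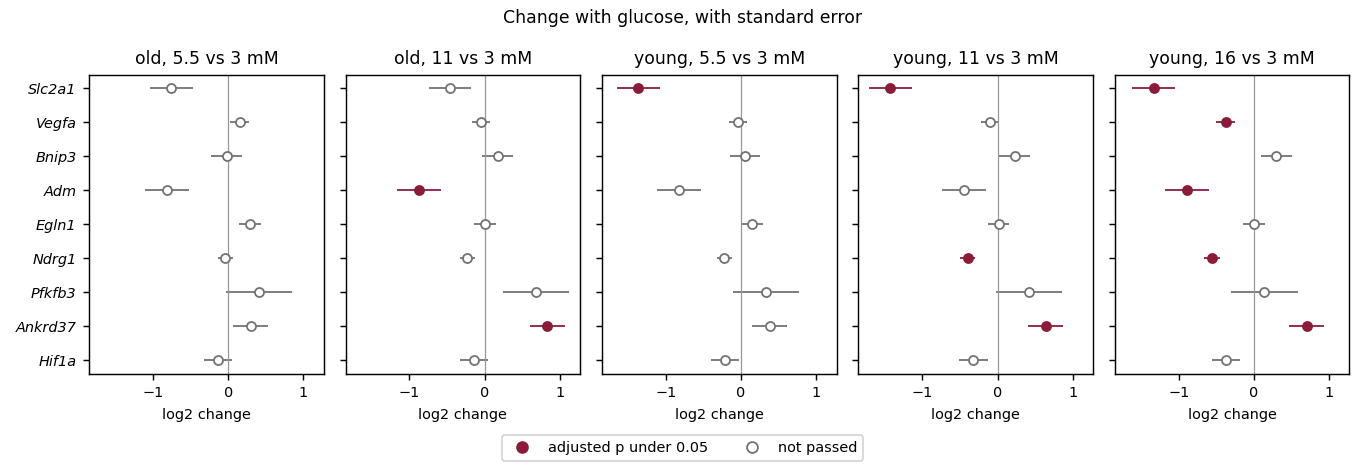
Log2 change against 3 mM (x axis, on the log2(value + 16) scale) of the 9 genes tested, for 5.5 and 11 mM in old islets and 5.5, 11 and 16 mM in young islets, with limma's standard error as bars and filled points at an adjusted p under 0.05. Slc2a1 is left of 0 in all 5 comparisons and Ankrd37 right of 0. Adm is shown as values only.

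In old islets the gene that rose with glucose was Ankrd37, by 0.83 at 11 against 3 mM (SE 0.23, adjusted p = 0.0122, limma, n = 2 arrays per group). It read 70 and 85 at 3 mM, 95 and 103 at 5.5 mM and 160 and 140 at 11 mM, with no overlap between concentrations. The call was lost without replicate 1 at 3 mM (0.71, adjusted p = 0.114) or replicate 1 at 11 mM (0.74, adjusted p = 0.0836). Slc2a1 read 334 and 502 at 3 mM, 219 and 254 at 5.5 mM and 309 and 279 at 11 mM. All arrays at 5.5 and 11 mM were below both at 3 mM, and the 2 arrays at 3 mM lay further apart than those of any other old group. Its log2 change did not pass at 5.5 mM (-0.76, SE 0.28, adjusted p = 0.137) or at 11 mM (-0.46, SE 0.28, adjusted p = 0.264).

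Adm read 45 and 42 at 3 mM, 22 and 14 at 5.5 mM and 14 and 19 at 11 mM in old islets. Its log2 value was -0.88 at 11 mM (SE 0.29, adjusted p = 0.0339, limma) and did not pass when any 1 of the 4 arrays was left out (adjusted p = 0.0713 to 0.158). The other Adm probe set gave -1.33. Vegfa read 2045 and 1568 at 3 mM, 1920 and 2062 at 5.5 mM and 1655 and 1816 at 11 mM, and 3 mM overlapped with both (-0.05 at 11 mM, SE 0.12, adjusted p = 0.832). Its dimmer probe set gave -0.74 at 11 against 3 mM, so the 2 probe sets disagree. Bnip3 differed between replicates more than between concentrations, at 1527 and 2765 at 3 mM, 1549 and 2656 at 5.5 mM and 2220 and 2432 at 11 mM (0.18 at 11 against 3 mM, SE 0.21, adjusted p = 0.594). Without replicate 2 at 3 mM Bnip3 was at 0.60 and passed (adjusted p = 0.0404).

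Ndrg1 read 1768 and 1739 at 3 mM, 1668 and 1749 at 5.5 mM and 1536 and 1448 at 11 mM in old islets. Both arrays at 11 mM lay below all 4 others. Its log2 change at 11 against 3 mM did not pass (-0.23, SE 0.10, adjusted p = 0.106, limma). The 4 other probe sets gave -0.35 to -0.83, and the mean of the probe sets passed (-0.564, adjusted p = 0.0052). Hif1a lay at 1180 to 1465 on the 6 cultured old arrays (-0.14 at 11 against 3 mM, SE 0.19, adjusted p = 0.651), Egln1 at 414 to 635 (0.0042, SE 0.14, adjusted p = 0.988), Pfkfb3 at 34 to 96 (0.69, SE 0.44, adjusted p = 0.285) and the untested Egln3 at 8 to 22. At 11 against 3 mM the dimmer Egln1 probe set gave -0.45, and the Hif1a probe set next in brightness gave -0.40.

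In old islets 2 of 9 genes passed at 11 against 3 mM (24.6% of all genes), Adm included. Without Adm, 1 of the other 8 genes passed there. At 5.5 against 3 mM 0 of 9 passed in limma's test (2 of 9 with an unadjusted p under 0.05; 4.74% of all genes passed). At 11 against 5.5 mM 0 of 9 passed (1 of 9 with an unadjusted p under 0.05; 4.4% of all genes). The log2 changes of the 9 genes lay between -0.82 and 0.41 at 5.5 against 3 mM and between -0.29 and 0.53 at 11 against 5.5 mM. At 11 against 3 mM 8 of 13 islet endocrine markers rose, and 1 of 12 endothelial, 1 of 9 acinar and 1 of 3 ductal markers fell, with an endothelial sum of 649 to 767 at 11 mM and 622 to 871 at 3 mM. Their part in the changes of the hypoxia genes was not tested. The response of old minus that of young islets was tested as a difference. For Slc2a1 at 11 against 3 mM it was 0.96 (SE 0.40, adjusted p = 0.416, limma), with a change of -0.46 in old and -1.42 in young islets. None of the 9 genes passed for 11 against 3 mM (1 of 9 with an unadjusted p under 0.05; 0.144% of all genes passed) or for 5.5 against 3 mM (0 of 9 with an unadjusted p under 0.05; 0% of all genes passed).

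Within hours of the step to 11 mM glucose Ankrd37 rose and Slc2a1 was lower, on the same arrays. Ankrd37 read 51 and 39 at 0 h, 129 and 95 at 1 h and 149 and 119 at 4 h. Every array at 1 and 4 h lay above both at 0 h, and 1 and 4 h overlapped. It rose by 1.30 at 4 h (SE 0.23, adjusted p = 0.000939, limma, n = 2 arrays per time), which is 2.46-fold, and passed whichever single array was left out. At 1 h it was at 1.06 (SE 0.23, adjusted p = 0.062) and passed with the replicate block (adjusted p = 0.0123), the numbers pairing these arrays closely.

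Slc2a1 read 294 and 587 at 0 h, 278 and 621 at 1 h and 197 and 245 at 4 h. Replicate 2 was about as high as the young islets kept 2 days at 3 mM (554 and 657), and replicate 1 was near the arrays at higher glucose. At 4 h both arrays lay below both at 0 h, by -0.87 (SE 0.28, adjusted p = 0.0515, limma). The value passed with the replicate block (adjusted p = 0.00167) and without replicate 1 at 0 h (-1.355, adjusted p = 0.00997). At 1 h against 0 h it was at 0.0013 (SE 0.28, adjusted p = 1). From 1 h to 4 h it was at -0.88 (SE 0.28, adjusted p = 0.102), passing with the block (adjusted p = 0.00439) and without replicate 1 at 1 h (-1.43, adjusted p = 0.0106).

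Replicate 2 was also the higher array for Pfkfb3 and Hif1a at each time. Pfkfb3 read 25 and 108 at 0 h, 39 and 155 at 1 h and 50 and 63 at 4 h, replicate 2 being higher each time (4 against 0 h: 0.02, SE 0.44, adjusted p = 0.988, limma). Hif1a read 1170 and 1694 at 0 h, 1132 and 1904 at 1 h and 1101 and 1475 at 4 h, again with replicate 2 higher each time (4 against 0 h: -0.14, SE 0.19, adjusted p = 0.722). Vegfa, Ndrg1, Egln1 and Bnip3 lay at 1229 to 1585, 2223 to 2459, 549 to 591 and 1027 to 1229 on these 6 arrays. None of these 4 passed at 1 h or 4 h. Adm read 29 and 37 at 0 h, 31 and 35 at 1 h and 20 and 10 at 4 h (4 against 0 h: -0.67, SE 0.29, adjusted p = 0.161), and the untested Egln3 lay at 11 to 24.

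**Figure D3:**
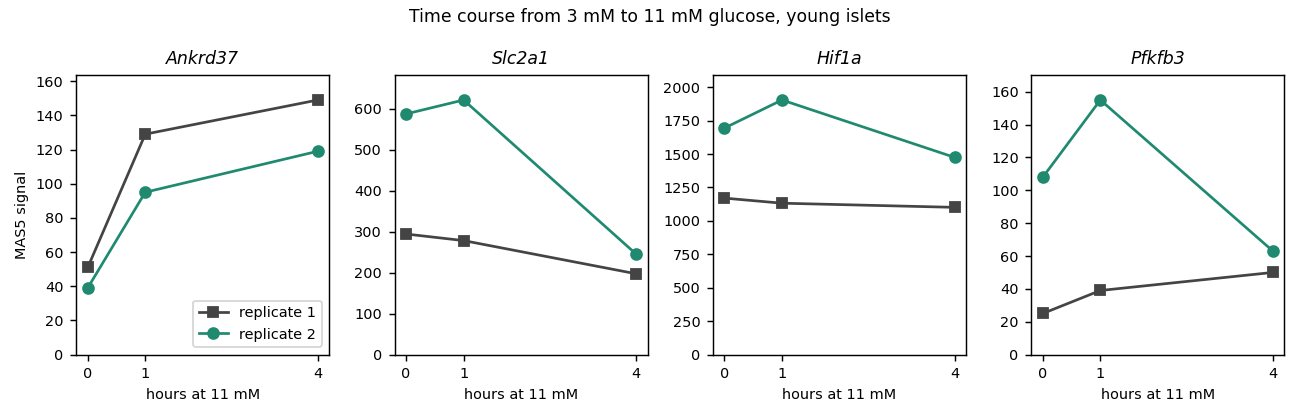
MAS5 signal (linear axis from 0) against hours at 11 mM glucose for Ankrd37, Slc2a1, Hif1a and Pfkfb3 in young islets, with 1 line for each replicate number. Both lines rise for Ankrd37, and replicate 2 is the higher line for the other 3 genes, with the lines of Slc2a1 and Pfkfb3 close together at 4 h.

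Of the 9 genes, 1 passed at 4 against 0 h (11.4% of all genes). At 1 against 0 h 0 of 9 passed in limma's test (1 of 9 with an unadjusted p under 0.05; 0.271% of all genes), and at 4 against 1 h 0 of 9 passed (2 of 9 with an unadjusted p under 0.05; 3.1% of all genes). These counts and shares leave out the pairing of same-numbered arrays. With the replicate block Ankrd37 also passed at 1 against 0 h, and Slc2a1 at 4 against 0 h and at 4 against 1 h, as given above. No marker of the islet endocrine, endothelial or acinar lists passed at 4 against 0 h. The sum of acinar markers was 828 to 1573 at 4 h and 851 to 5874 at 0 h. The hours of culture and the glucose step cannot be told apart in this design.

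Culture at 11 mM against fresh islets left the 9 genes with no call at either age. In young islets 0 of 9 passed in limma's test (0 of 9 with an unadjusted p under 0.05; 4.18% of all genes passed), and in old islets 0 of 9 (1 of 9; 5.55% of all genes). Slc2a1 read 309 and 279 in cultured old islets, against 196 and 186 in fresh old islets (0.58, SE 0.28, adjusted p = 0.274). In young islets it read 267 and 309 at 11 mM (set A), against 218 and 256 fresh (0.27, SE 0.28, adjusted p = 0.741). Bnip3 read 2220 and 2432 in old islets at 11 mM, against 1569 and 1566 fresh (0.56, SE 0.21, adjusted p = 0.124). Both genes were higher on both cultured arrays in these comparisons, except that Bnip3 in young islets (1459 and 1785 at 11 mM in set A, against 1511 and 1459 fresh) overlapped. Over the 9 genes the log2 changes lay between -0.19 for Hif1a and 0.65 for Pfkfb3 in old islets, and between -0.46 for Adm and 0.32 for Pfkfb3 in young islets. The difference between ages in this effect of culture passed for none of the 9 genes (0 of 9 with an unadjusted p under 0.05; 0.0239% of all genes passed).

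At 3 mM against fresh, old islets had higher Slc2a1. It read 334 and 502 at 3 mM, against 196 and 186 in fresh islets, and rose by 1.04 (SE 0.28, adjusted p = 0.00735, limma), which is 2.06-fold. The call was lost without replicate 2 at 3 mM (0.76, adjusted p = 0.108). Adm read 45 and 42 at 3 mM, against 20 and 11 fresh (0.93, SE 0.29, adjusted p = 0.0178), with the other probe set at 1.77, and did not pass without replicate 1 or 2 at 3 mM or replicate 2 of fresh islets (adjusted p = 0.0583 to 0.147). Without replicate 1 at 3 mM Bnip3 passed as higher (0.81, adjusted p = 0.00586), and without replicate 2 of fresh islets Ankrd37 passed as lower (-0.725, adjusted p = 0.0395). In all 2 of 9 genes passed, Adm included, with 35.1% of all genes, and the other 7 lay between -0.35 for Ankrd37 and 0.39 for Bnip3. Without Adm, 1 of 8 genes passed. In this comparison 12 of 12 endothelial, 9 of 9 acinar and 7 of 13 islet endocrine markers fell, while 3 of 12 macrophage markers rose and 1 fell. Their part in these changes was not tested. At 5.5 mM against fresh 0 of 9 passed (2 of 9 with an unadjusted p under 0.05; 17% of all genes), with Egln1 at 0.39 (SE 0.14, adjusted p = 0.0686) and Vegfa at 0.26 (SE 0.12, adjusted p = 0.162). Bnip3 passed there without replicate 1 at 5.5 mM (0.755, adjusted p = 0.0323).

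Endothelial and acinar markers were lower in culture. Of 12 endothelial markers 11 fell in old and 10 in young islets at 11 mM against fresh, and of 9 acinar markers 9 and 8 fell. The endothelial sum was 649 to 767 at 11 mM and 3414 to 3448 fresh in old islets, and 841 to 953 at 11 mM (set A) and 3495 to 3950 fresh in young islets. Pecam1 read 5 at 11 mM and 40 to 47 fresh in old islets. The acinar sum was 194 to 593 at 11 mM and 18703 to 38224 fresh in old islets. Other lists did not share this fall at 11 mM. In old islets 2 of 12 macrophage and 1 of 3 ductal markers rose and none of either list fell, and of 9 stromal markers 3 rose and 2 fell. In young islets 2 stromal markers rose and 2 fell, and no macrophage or ductal marker passed. The part of these cells in the values of the hypoxia genes was not tested.

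Vegfa was the gene that differed with age. It read 1752 and 1581 in fresh old islets, against 1040 and 942 in fresh young islets, and 1655 and 1816 in old islets at 11 mM, against 1042 and 989 in young islets at 11 mM (set A). Old and young arrays did not overlap in either condition, but neither did those of Ankrd37, Bnip3 and Egln1, which did not pass. With 2 arrays per group, separate ranges alone are weak evidence. Vegfa rose by 0.74 in old against young fresh islets (SE 0.12, adjusted p = 0.000702, limma), which is 1.67-fold, and by 0.76 at 11 mM (SE 0.12, adjusted p = 0.00031), which is 1.70-fold, and passed in both whichever array was left out. The dimmer Vegfa probe set gave 0.70 in fresh islets and 0.30 at 11 mM. The share of genes called was 9.46% in fresh islets, where 1 of 9 hypoxia genes passed, and 15.6% at 11 mM, where 1 of 9 passed. Ankrd37 read 138 and 75 in old against 149 and 167 in young fresh islets (-0.55, SE 0.23, adjusted p = 0.141) and passed as lower without replicate 1 of fresh old islets (-0.93, adjusted p = 0.0465). Bnip3 (0.52, SE 0.21, adjusted p = 0.0925) and Ndrg1 (-0.28, SE 0.10, adjusted p = 0.0675) did not pass at 11 mM. The genes other than Vegfa lay between -0.57 for Adm and 0.21 for Pfkfb3 in fresh islets and between -0.35 for Ankrd37 and 0.54 for Pfkfb3 at 11 mM.

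Beside the age difference of Vegfa, 8 of 9 stromal markers fell in old against young fresh islets and 7 of 9 at 11 mM. Their sum over 10 genes was 2574 to 2796 in old and 5577 to 7488 in young fresh islets, and 2194 to 2275 in old and 5513 to 6178 in young islets at 11 mM (set A). Of 12 endothelial markers 1 fell in each condition. Of 12 macrophage markers 3 rose at 11 mM, with a sum of 3784 to 3847 in old and 2027 to 2776 in young islets (set A), and none of the 12 passed in fresh islets. Among 13 islet endocrine markers 1 rose and 4 fell in fresh islets, and 1 rose and 1 fell at 11 mM. Of 9 acinar markers 1 rose in fresh islets, with a sum of 18703 to 38224 in old and 8807 to 16229 in young islets. None of the 9 passed at 11 mM. Of 3 ductal markers 1 rose in each condition. The part of these cells in the Vegfa difference was not tested.

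**Figure D4:**
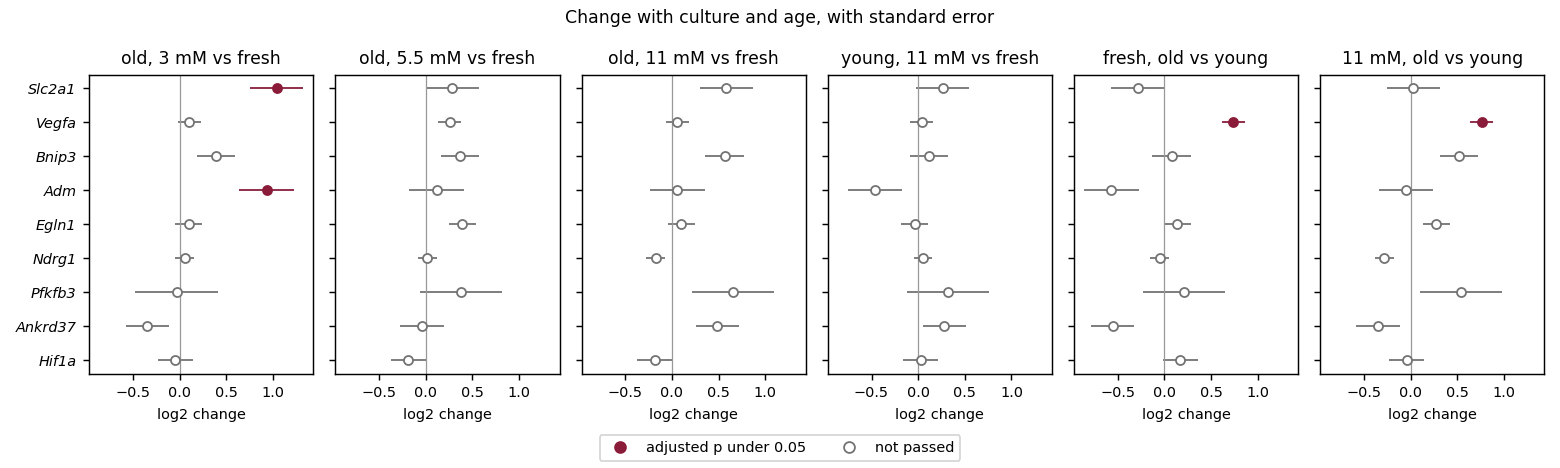
Log2 change (x axis, on the log2(value + 16) scale) of the 9 genes tested, for culture at 3, 5.5 and 11 mM against fresh in old islets, culture at 11 mM against fresh in young islets, and old against young in fresh islets and at 11 mM, with limma's standard error as bars and filled points at an adjusted p under 0.05. The filled points are Slc2a1 and Adm at 3 mM against fresh and Vegfa in both comparisons of age. Adm is shown as values only.

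Other genes of the pathway were taken from 3 lists of 74 genes in all, of which 64 were tested, the 9 genes above included. Among 9 subunits of HIF and oxygen sensors, 4 fell and none of the 9 rose at 16 against 3 mM in young islets (44.4%, beside 28.8% of all genes). Arnt2, a partner subunit related to ARNT, fell by 1.26 (SE 0.21, adjusted p = 0.000131, limma), with signals of 112 to 113 at 16 mM against 264 to 323 at 3 mM. Egln2, the third oxygen-sensing hydroxylase, fell by 0.42 (SE 0.11, adjusted p = 0.00533), Epas1, which encodes HIF-2α, by 0.68 (SE 0.18, adjusted p = 0.00737) and Vhl, whose product binds the hydroxylated factor for destruction, by 0.60 (SE 0.16, adjusted p = 0.00814). In old islets at 11 against 3 mM 1 of 9 fell (11.1%, beside 24.6% of all genes), Arnt2 by 0.77 (SE 0.21, adjusted p = 0.00949). At 4 against 0 h 1 of 9 fell (11.1%, beside 11.4%), Arnt2 by 0.88 (SE 0.21, adjusted p = 0.00816).

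In culture against fresh islets Epas1 was the gene of this list that changed at 11 mM. It averaged 128 ± 25.5 at 11 mM against 973 ± 15.6 in fresh old islets, and 164 ± 24.0 (set A) against 983.5 ± 38.9 in fresh young islets (SD, n = 2 arrays each). It fell by 2.79 in old (SE 0.18, adjusted p = 2.01e-09, limma) and fell by 2.48 in young islets (SE 0.18, adjusted p = 1.78e-08). Epas1 is strongly expressed in endothelial cells, and Flt1, a receptor for VEGF and an endothelial marker, fell beside it by 1.95 in old (SE 0.33, adjusted p = 0.000836) and fell by 1.79 in young islets (SE 0.33, adjusted p = 0.00242). The endothelial sums above, which include Flt1, fell in the same comparisons. The part of endothelial cells in the Epas1 change was not tested.

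Of 20 genes of glucose uptake and glycolysis, 3 rose and 2 fell at 16 against 3 mM in young islets (25%, beside 28.8% of all genes). At 11 against 3 mM in old islets 1 rose and 1 fell (10%, beside 24.6%), and at 4 against 0 h 1 fell (5%, beside 11.4%). Eno2, an enolase gene of neurons and endocrine cells, was the falling gene other than Slc2a1 in each. It averaged 142.5 ± 6.36 at 16 mM against 384 ± 33.9 at 3 mM in young islets (SD, n = 2 arrays each), and fell by 1.33 (SE 0.16, adjusted p = 5.68e-06, limma). It fell by 0.82 in old islets (SE 0.16, adjusted p = 0.00099) and by 1.20 at 4 h (SE 0.16, adjusted p = 8.53e-05). Pkm, a pyruvate kinase gene, rose by 0.45 at 16 against 3 mM in young (SE 0.16, adjusted p = 0.034) and by 0.50 at 11 against 3 mM in old islets (SE 0.16, adjusted p = 0.0233). The glycogen synthase gene Gys1 (1.03, SE 0.34, adjusted p = 0.0277) and the glycogen branching enzyme gene Gbe1 (0.56, SE 0.18, adjusted p = 0.0247) rose at 16 mM in young islets. The median of the list at 16 against 3 mM was 0.08, beside 0.01 for all genes.

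Between the ages, 8 of these 20 genes rose and 1 fell at 11 mM in old against young islets (45%, beside 15.6% of all genes, with a median of 0.58, beside 0.02 for all genes). The macrophage and stromal markers described above moved in the same comparison, and their part was not tested. The genes that rose included Pkm by 1.63 (SE 0.16, adjusted p = 2.42e-06, limma), Eno2 by 1.195 (SE 0.16, adjusted p = 7.69e-05), Pfkl by 1.41 (SE 0.24, adjusted p = 0.00057) and Aldoa by 0.82 (SE 0.14, adjusted p = 0.000644). Pkm averaged 1018 ± 65.1 in old against 319 ± 55.2 in young islets (set A; SD, n = 2 arrays each). In fresh islets 3 rose and none of the 20 fell (15%, beside 9.46% of all genes), Pkm by 1.12 (SE 0.16, adjusted p = 0.00018). Pkm read 280 to 358 in the young 11 mM islets of set A and 1808 to 2363 in those of set B, so its signal differed between the array sets. Pfkl (59 to 60 in set A, 660 to 753 in set B) and Egln2 (267 to 277 and 844 to 853) differed likewise. Eno2 and Aldoa were also higher in set B, by less, and Arnt2 was lower. In the list of subunits and sensors, Arnt2 rose by 0.72 in old against young fresh islets (SE 0.21, adjusted p = 0.0333), and at 11 mM Arnt2 rose by 0.65 (SE 0.21, adjusted p = 0.0381) and Egln2 by 0.33 (SE 0.11, adjusted p = 0.0373).

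Of 35 other HIF targets, 2 rose and 7 fell at 16 against 3 mM in young islets, and 4 rose and 6 fell at 11 against 3 mM in old islets. These are 25.7% and 28.6% of the list, near the 28.8% and 24.6% of all genes. The list holds some of the genes described above, so their calls are counted again in its numbers. Ankrd37 is among those that rose at both ages, and Adm, a value only, among those that fell at both. Ndrg1 and Vegfa are among those that fell in young islets. The collagen prolyl hydroxylase gene P4ha2 fell by 0.87 in young (SE 0.19, adjusted p = 0.00146, limma) and by 0.90 in old islets (SE 0.19, adjusted p = 0.00144). The ubiquitin ligase subunit gene Wsb1 fell by 1.22 (SE 0.21, adjusted p = 0.000209) in young and by 1.37 (SE 0.21, adjusted p = 9.76e-05) in old islets. In old islets P4ha1 fell by 1.25 (SE 0.21, adjusted p = 0.00025) and the transcriptional repressor gene Bhlhe40 by 0.85 (SE 0.19, adjusted p = 0.00224). P4ha1 averaged 331.5 ± 7.78 at 11 mM against 811.5 ± 91.2 at 3 mM in old islets (SD, n = 2 arrays each). Insig2, a regulator of sterol synthesis, rose by 0.53 at 16 mM in young islets (SE 0.13, adjusted p = 0.00474). The median of the list was -0.13 in young islets at 16 mM and -0.0044 in old islets at 11 mM, beside 0.01 and 0.04 for all genes.

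At 4 against 0 h 3 of the 35 rose and 3 fell (17.1%, beside 11.4% of all genes). Bhlhe40 fell by 0.97 (SE 0.19, adjusted p = 0.00162, limma) and the lipoprotein receptor gene Vldlr by 0.61 (SE 0.11, adjusted p = 0.00077). Angptl4, a lipase inhibitor gene counted among the 3 that fell, was at -1.82 (SE 0.39, adjusted p = 0.00369). It read 40 to 69 at 0 h, 49 to 53 at 1 h and 3 to 4 at 4 h. Like Adm, it passed the filter mainly through groups where it was high, so this is a value only. Cited2, whose product competes with HIF for a coactivator, rose by 0.65 (SE 0.14, adjusted p = 0.00476). At 11 mM against fresh 4 rose and 1 fell in old islets (14.3%, beside 5.55% of all genes). In young islets 3 rose and 1 fell (11.4%, beside 4.18%). Vldlr rose by 0.71 in old (SE 0.11, adjusted p = 0.000206) and by 1.12 in young islets (SE 0.11, adjusted p = 7.02e-07). Hmox1, the haem oxygenase gene, is counted among those that rose. It was at 2.42 in old (SE 0.44, adjusted p = 0.00151) and at 1.80 in young islets (SE 0.44, adjusted p = 0.0215). Hmox1 read 6 to 25 in fresh old and 20 to 26 in fresh young islets, under the array median. At 11 mM it read 143 to 146 in old and 116 to 123 in young islets (set A). It passed the filter only through cultured islets, where it was high, so these are values only. At 3 mM against fresh in old islets 9 rose and 2 fell (31.4%, near the 35.1% of all genes), P4ha1 by 1.58 (SE 0.21, adjusted p = 1.02e-05) and P4ha2 by 1.28 (SE 0.19, adjusted p = 2.73e-05) among those that rose. Adm, a value only, is counted among these 9. Between old and young islets 4 rose and 1 fell when fresh (14.3%, beside 9.46% of all genes), and 4 rose and 4 fell at 11 mM (22.9%, beside 15.6%). At 11 mM P4ha2 rose by 1.05 (SE 0.19, adjusted p = 0.000809). Lox, which cross-links collagen and is counted among the 4 that fell, was at -1.23 (SE 0.31, adjusted p = 0.0095). Lox read 8 to 28 in old islets, under the array median, and 56 to 65 in young islets (set A). It passed the filter mainly through young islets at 11 mM, where it was high, so this too is a value only.

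**Figure D5:**
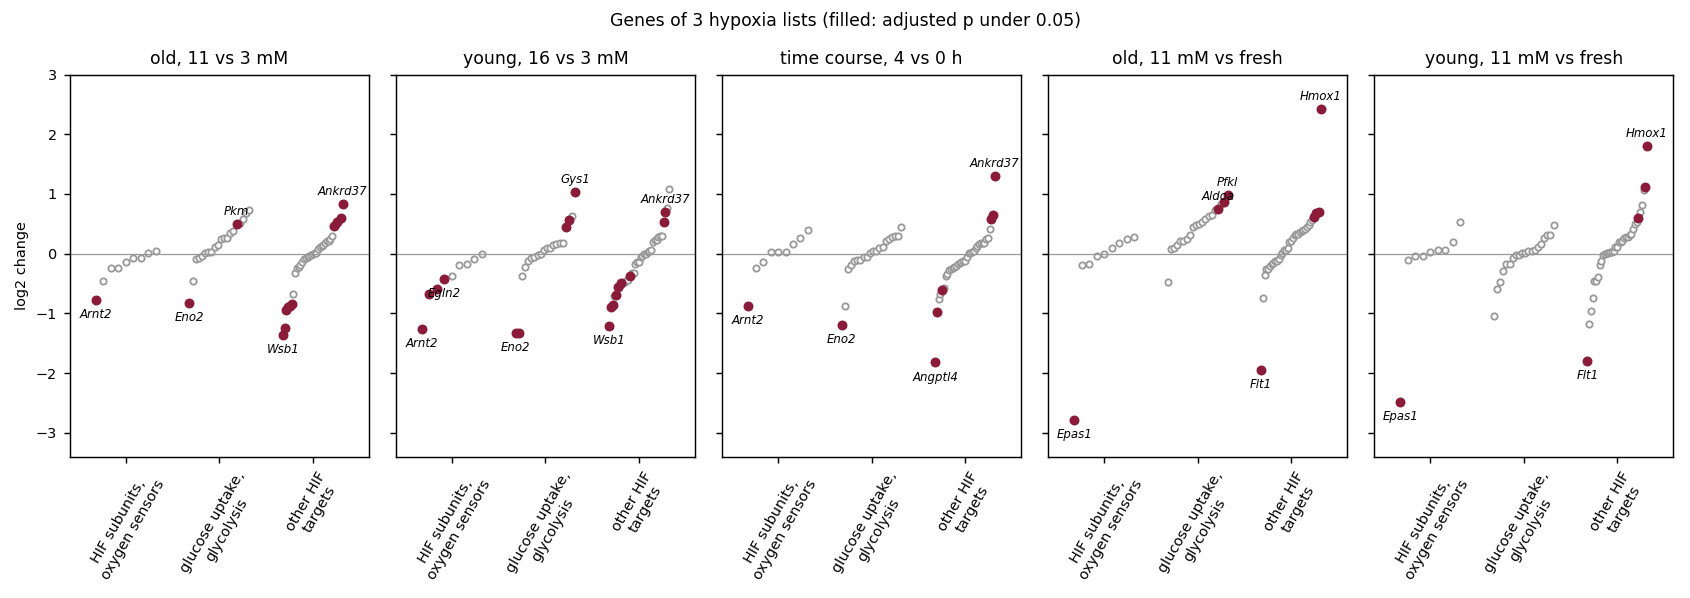
Log2 change (y axis, on the log2(value + 16) scale) of each tested gene of the 3 hypoxia lists, ordered by value within a list, for 11 against 3 mM in old islets, 16 against 3 mM in young islets, 4 against 0 h, and 11 mM against fresh in old and young islets, with filled points at an adjusted p under 0.05 and the extreme filled genes named. Ankrd37 is the highest filled point among the other HIF targets in the first 3 panels, and Epas1 and Flt1 are the lowest in the last 2.

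The 9 genes did not share 1 pattern. Pearson's r was taken over the means of 13 combinations of group and array set, centred within each set. It was highest between Slc2a1 and Adm (0.80), Vegfa and Egln1 (0.73) and Bnip3 and Egln1 (0.68). It was 0.59 between Slc2a1 and Ndrg1 and 0.59 between Slc2a1 and Hif1a. It was -0.52 between Slc2a1 and Ankrd37, -0.62 between Vegfa and Ankrd37 and -0.71 between Bnip3 and Hif1a. These points share arrays and array sets, and the values are a description without a test. Over the same 13 means the genes most like Slc2a1 were Sergef (r = 0.93), Rdh9 (0.92) and Mrrf (0.90). The genes most like Ankrd37 were Fut11 (0.95), Utp23 (0.93) and Ythdf1 (0.93). Those most like Vegfa were Csf2ra (0.97), Tmem59l (0.97) and Myo18a (0.96), and those most like Hif1a were Cdc42ep3 (0.98), Bcl6 (0.95) and Jund (0.93).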

How the data were processed

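Islet RNA of 26 samples was measured on 1 array each. The deposited intensity values are linear, and the submitters' processing notes name MAS5 as the authors' tool. Their trimmed mean (2% at each end) was 150 on every array. The number of arrays limits the precision, and detection calls were not used here. Probe sets with 1 symbol (34945 of 45101) were kept, with symbols updated for 34741 through Entrez identifiers (RefSeq gene table, GRCm38.p6). Each gene was read from its brightest probe set. The test took the 12542 genes whose signal exceeded the median of the array on 2 or more of 26 arrays, on log2(value + 16), a scale that shrinks the changes of dim genes.

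limma 3.58.1 (R 4.3.3) fitted 12 group means and the array set (Gapdh ratio above or below 0.5), with an intensity trend (13 residual and 7.02 prior degrees of freedom). Changes are the first-named group minus the second, with the moderated SE. Adjusted p is Benjamini-Hochberg over all genes of a comparison, with a threshold of 0.05. The sample titles call replicates biological and do not say whether each came from its own mice, so p-values rest on the spread of these arrays alone, which may be partly technical.

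Deviations of same-numbered arrays correlated at 0.17 to 0.42 over 6 pairs of cultured young groups in set B and, for the 3 pairs of times, at 0.55 to 0.63, so these numbers were taken to pair the arrays. Over 6 pairs of old groups the correlation was 0.055 to 0.2, and they were not. The young pairs of 3 with 11 mM (0.17) and 3 with 16 mM (0.19) lay within that range, so the pairing is weak there. The main fit left the pairing out in every comparison, the time course included, and the replicate block was run as an alternative.

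The members, gene lists, comparisons and array sets were chosen with earlier results of these data known. The rule named all 10 genes in every comparison, the text giving those outside the calls partly by their range, with up to 4 called genes of smallest adjusted p per list and comparison for the pathway lists, in the comparisons described, and the genes of highest r. The text gives a selection of the latter. The fit was tested on simulated data. Alternatives were another offset (1 or 64), no or a stricter filter (13 arrays), quantile normalization, the mean of probe sets, no set term, a replicate block, no trend, only the compared arrays, and each array left out.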

Additional observations from a re-analysis of the deposited data

Results flagged for a closer look

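In the group of 4 young 11 mM arrays, 1 array stood apart from the others for each of 2 genes (a different array for each), by the gap to its nearest neighbour divided by the range of the group. Bnip3 gave 0.851, with replicate 3 low at 1459 against 1733 to 1785 on the other arrays. Pfkfb3 gave 0.931, with replicate 2 low at 34 against 46 to 47 on the others. Both ratios exceeded Dixon's critical value at the 95% level. Chance flags about 1 in 20 such groups. This group spans both array sets, and the part of the sets in these values was not tested.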

How the results depend on the processing

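No member's called value changed sign under any alternative run. Slc2a1 at 11 and 16 against 3 mM in young islets, Ndrg1 at 16 against 3 mM, Ankrd37 at 4 against 0 h and Vegfa in both comparisons of age passed under every alternative run for them. Changes by over 1.5 times in the number of the 9 genes that passed were as follows. With only the compared arrays it was 1 at 11 and 3 at 16 against 3 mM in young islets, 1 in old islets at 5.5 against 3 mM, at 11 mM against fresh and at 5.5 mM against fresh, and 2 for old against young at 11 mM. Without the array set term it was 3 at 16 against 3 mM in young islets, 1 at 11 against 3 mM in old islets and 2 for old against young at 11 mM. With the mean of probe sets it was 1 at 5.5 and 4 at 11 against 3 mM in old islets and 2 for old against young at 11 mM. With an offset of 1 it was 1 at 11 against 3 mM in old islets and 1 at 1 against 0 h. With the filter at 13 arrays, which drops Adm, it was 1 at 11 against 3 mM and 1 at 3 mM against fresh in old islets, and 2 at 4 against 0 h. With the replicate block it was 1 at 1 against 0 h, 2 at 4 against 0 h, 1 at 4 against 1 h, and, for old islets, whose numbers were not taken to pair arrays, 1 at 5.5 against 3 mM, 2 at 11 mM against fresh, 1 at 5.5 mM against fresh and 3 for old against young at 11 mM. Smaller moves were, at 11 against 3 mM in young islets, 4 with the block and 2 with no filter, quantile normalization or no trend, at 16 against 3 mM 6 with the block and 4 with the mean of probe sets or the filter at 13 arrays, and at 3 mM against fresh in old islets 3 with the block or the mean of probe sets. Leaving out 1 array gave 0 to 1 at 5.5, 1 to 2 at 11 and 2 to 4 at 16 against 3 mM in young islets, 0 to 2 at 11 against 3 mM, 0 to 2 at 3 mM against fresh and 0 to 1 at 5.5 mM against fresh in old islets, 1 to 2 at 4 against 0 h, 0 to 1 at 4 against 1 h and 1 to 2 for old against young fresh islets. Where 1 array was left in a group, it was assumed to vary like the other groups. The causes were not tested. Over all genes, the count past the threshold at 5.5 against 3 mM in young islets was 760, with 112 to 661 when 1 array was left out and 147 to 1607 under the other alternatives, and for old against young at 11 mM it was 1960, with 729 to 1946 and 874 to 3077. Dim signal limits Adm, Egln3 and Pfkfb3, and Angptl4, Lox and, in fresh islets, Hmox1 of the pathway lists.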
